A study of Rattus norvegicus with 12 samples.

Results

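The 7 VDAC1 knockout cultures of this rat cell series fell into a set of 4, labelled KO 1 to KO 4, and a set of 3, labelled KO 5 to KO 7, out of 12 arrays in all. Each knockout array held RNA from 1 culture of N27, an immortalised line from fetal rat midbrain that the labels call dopaminergic, in which the gene Vdac1 had been removed by CRISPR and which was grown to 80% confluence. The other 5 arrays held wild-type N27 cultures labelled WT 3 and WT 5 to WT 8, grown to the same confluence and with no edit named. No drug or other treatment is named for any culture. The labels give no clone, passage, guide or edited position, and no meaning for the sample numbers, so the sets are called by their numbers here.

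The sets were chosen from these same expression values: the first principal component of all 12 arrays placed KO 1 to 4 at 32.3 to 45.1 and KO 5 to 7 at -47.0 to -33.5. WT 3 lay at 42.1 on that axis and WT 5 to 8 at -33.6 to -13.7. A difference between the sets is therefore a description, given with its standard error (SE, from the pooled spread of 4 and 3 arrays) and without a test. Signal is given throughout as log2 of the processed spot intensity minus the 75th percentile of its array, so that 0 is the level below which 75% of the spots lay, and every value after a gene name is on that scale. Levels of different probes cannot be set against each other.

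VDAC1 is the most abundant pore protein of the outer mitochondrial membrane, through which ATP, ADP and metabolites such as pyruvate pass between cytosol and mitochondrion. It docks hexokinase, which then has direct access to mitochondrial ATP, touches the inositol trisphosphate receptor at contacts with the endoplasmic reticulum, and binds BCL2 family proteins that govern release of cytochrome c. Dopaminergic neurons have a high energy demand, and mitochondrial function in them is studied in connection with Parkinson disease. Comparing the 2 sets asks how alike cultures with the same knockout label were.

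The Vdac1 transcript was read by 3 probes, of which the one starting at base 630 of the transcript is shown because it lies away from the transcript's end. It maps to chr10:37819583-37819641 in the rn4 coordinates of the file headers, which were not checked against a genome here.
Vdac1 probe at base 630: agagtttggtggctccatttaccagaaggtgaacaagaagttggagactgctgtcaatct

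By this probe Vdac1 gave -2.19, -2.44, -2.29 and -2.31 in KO 1 to 4 and -3.37, -4.15 and -2.87 in KO 5 to 7. WT 3 gave -1.81, and WT 5 to 8 gave -1.89 to -1.29. All 4 arrays of KO 1 to 4 were above all 3 of KO 5 to 7 and below all 5 wild-type arrays, and the set difference was 1.16 ± 0.32 (SE), or 2.23-fold. The probe at base 1724, the one that represents Vdac1 in the counts below, gave 2.54, 2.45, 2.68 and 2.26 in KO 1 to 4 and 1.21, 1.53 and 1.20 in KO 5 to 7, beside 3.61 in WT 3 and 3.07 to 3.16 in WT 5 to 8. It showed the same order with a set difference of 1.17 ± 0.14, or 2.25-fold. The probe at base 880 gave -2.10 to -1.87 in KO 1 to 4, -3.09 to -2.58 in KO 5 to 7, -1.28 in WT 3 and -1.51 to -0.53 in WT 5 to 8, a set difference of 0.92 ± 0.14. Vdac1 was well above background by all 3 probes on all 12 arrays.

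As a share of the WT 5 to 8 level (means of log2 values), Vdac1 signal in KO 1 to 4 was 64.8% at base 1724, 55.2% at base 880 and 61.7% at base 630. In KO 5 to 7 it was 28.8%, 29.1% and 27.6%. Set against WT 3 alone, the shares were 46.0%, 61.9% and 71.0% in KO 1 to 4 and 20.4%, 32.6% and 31.8% in KO 5 to 7. The knockout label therefore covered residual Vdac1 signal that was larger in one set than in the other by the 3 probes at this setting. With normexp background correction the set difference was 1.01 at base 1724, but 0.26 at base 880 and 0.48 at base 630, and at these dimmer probes the sets then overlapped. KO 4 and KO 5, which shared a slide, differed by 1.05 to 1.15 over the 3 probes. With RNA of whole cultures, a larger fraction of unedited cells and more transcript per cell cannot be told apart, and the probes do not show whether the RNA carries an edit.

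**Figure D1:**
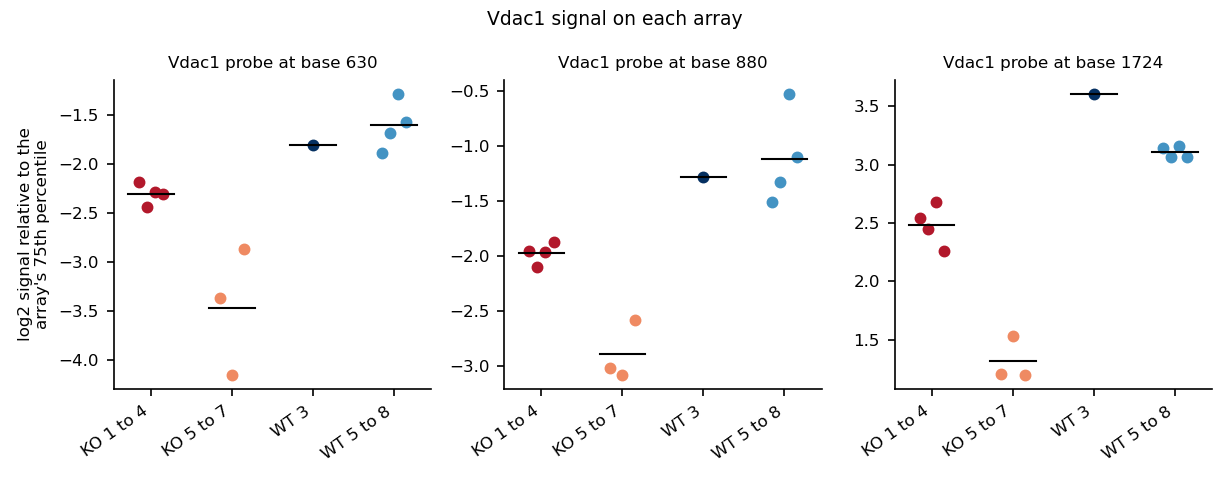
Signal of the 3 Vdac1 probes on each of the 12 arrays (log2 relative to the 75th percentile of the array), with the knockout sets and the wild-type arrays apart and bars at the group means. At each probe KO 5 to 7 lie below KO 1 to 4, and KO 1 to 4 lie below every wild-type array.

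The other 2 isoforms of the channel did not separate the sets. Vdac2, the isoform that holds BAK at the outer membrane, gave 3.57, 3.77, 3.66 and 4.39 in KO 1 to 4 and 4.31, 3.83 and 3.74 in KO 5 to 7, a difference of -0.11 ± 0.27. Vdac3 gave 3.49, 3.41, 3.49 and 3.80 against 3.87, 3.0 and 2.91, a difference of 0.29 ± 0.28. In both isoforms KO 4 and KO 5 were the highest arrays of their set, and the sets overlapped.

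Over the whole array, 14962 gene names passed the filter of signal well above background on 3 or more of the 7 knockout arrays, from 36174 names. Of these, 591 (3.95%) were at least 2-fold higher in KO 1 to 4 with no overlap of the sets, and 764 (5.11%) were at least 2-fold lower. At 1.5-fold, 1520 (10.2%) were higher and 1825 (12.2%) lower, and with no limit of size 2588 (17.3%) lay wholly above and 2943 (19.7%) wholly below. The grouping was made on these values, so nothing is read from these shares. They serve as the background for each gene group below, and the median difference over all features was -0.032. The median absolute difference was 0.358 and the median spread (SD) within the sets 0.245.

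The numbers of higher and lower features depended on how the arrays were scaled. The share of higher features among those called was 43.6% here, 53.7% with normexp background correction, 54.8% with quantile normalization, 54.0% in the authors' deposited table, 68.9% after scaling to the median and 31.6% after scaling to the 75th percentile of detected spots. These last 2 moved the median of all features to 0.18 and -0.15. The normexp setting, which adds a fixed offset to each signal, left 166 higher and 143 lower. Of 173 probes of named genes that differed by at least 1.5-fold without overlap, 76 had under 2/3 of their difference with normexp, and for 34 the sets overlapped. Of the genes below, these 34 include Fgfr2, C4a, Nrap, Ppp1r1b, Ldhb, Nqo1, Higd1a, Bhlhe40, Fas, Cenpf, Vcam1, Csf2, Ankrd1, Myl9 and Stc1. Group medians are therefore read against the all-feature median, and no statement is made on which set had more RNA of any kind in total.

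At the limit of the filter, 691 features were well above background on exactly 3 knockout arrays, with a median signal of -4.63, and 179 of them were counted as 2-fold higher or lower. Just outside it, 909 gene names were well above background on exactly 2, with a median of -5.01. In all, 11621 features were well above background on all 7, and among these 294 were 2-fold higher and 379 lower.

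On the 7 knockout arrays alone, the first component held 57.1% of the variance and placed KO 1 to 4 at 32.3 to 38.5 and KO 5 to 7 at -54.6 to -45.3. The second held 19.2% and set KO 4 (36.7) and KO 5 (38) apart from the others (-27.7 to -6.51). Pearson correlations across features were 0.977 to 0.992 within KO 1 to 4, 0.969 to 0.986 within KO 5 to 7 and 0.939 to 0.956 between the sets. KO 1, 2 and 3 shared slide 2 with WT 5, KO 6 and 7 shared slide 1 with WT 3 and WT 8, and KO 4 and KO 5 shared slide 3 with WT 6 and WT 7, which was scanned on another day. The 75th percentile signal ran from 120.1 to 691.8, 42.3% to 53.8% of spots were well above background, and no spot was saturated. Spike-in RNA, relative to the 75th percentile, was at 1.93 to 3.54 in KO 1 to 4 and 1.6 to 2.02 in KO 5 to 7, and its part in the set difference was not tested.

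Slide 3 alone held knockout arrays of both sets, KO 4 and KO 5, so 1 pair could be compared within a slide. The rule of no overlap fixes the direction of KO 4 against KO 5, and their difference was itself at least 2-fold at 484 of the 591 higher and 645 of the 764 lower features. Across the 11621 features measured on all 7 arrays, KO 4 minus KO 5 and the mean of KO 1 to 3 minus the mean of KO 6 and 7, which share no array, had a Pearson correlation of 0.764. This correlation is a description across genes, which are not independent replicates, and it uses the arrays that defined the sets.

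The labelled cell type was checked against its markers. Of 13 dopaminergic neuron markers, 2 were well above background on all 12 arrays, Th (tyrosine hydroxylase) and Aldh1a1, and 6 were well above background on none, among them Ddc, Slc6a3, Foxa2 and Drd2. Th was at -1.76 to -1.42 in KO 1 to 4 and -2.32 to -1.19 in KO 5 to 7, which overlap. Aldh1a1, a retinaldehyde dehydrogenase of ventral midbrain neurons, was at -0.79 to -0.48 in KO 1 to 4 and -0.37 in WT 3 against -2.19 to -2.07 in KO 5 to 7 and -2.44 to -2.17 in WT 5 to 8. Slc18a2, a marker well above background on 9 arrays, lay on the other side. It was at -4.61 to -3.88 in KO 1 to 4 and -3.61 to -2.59 in KO 5 to 7. Of 18 general neuronal markers 11 were above background on no array, Map2, Snap25 and Syp included, while the progenitor markers Nes, Vim, Hes1 and Notch1 were above it on all 12.

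Lists of other cell types were detected in part. Above background on all 12 arrays were 2 of 9 astrocyte markers (Gja1 and Glul), 1 of 10 of oligodendrocytes (Cnp), 2 of 10 of microglia and leukocytes (Cd68 and Cx3cr1), 1 of 8 of endothelial cells (Vwf) and, of 6 of erythroid cells on the array, Hba-a1. Of their defining markers Gfap was above background on 1 array, and Ptprc, Pecam1, Mbp and Hbb on none. The summed signal of 12 fibroblast and pericyte markers was 3.42 to 3.80 in KO 1 to 4, 4.0 to 4.19 in KO 5 to 7, 3.15 in WT 3 and 4.93 to 5.16 in WT 5 to 8, with 4 of the 12 above background everywhere (Col1a1, Thy1, Pdgfrb and S100a4). Its brightest member, S100a4, had a mean of 3.40 in KO 1 to 4 and 4.01 in KO 5 to 7, and Dcn, Lum, Rgs5 and Fap were above background on no array. The summed signal of 9 astrocyte markers was 1.29 to 1.5 in KO 1 to 4 and 1.84 to 2.11 in KO 5 to 7, with Glul, its brightest member, at means of 0.52 and 1.67. Aldoc (-0.60 and -2.19) and Gja1 (-1.28 and -1.65) had their higher mean in KO 1 to 4, and the median difference of the 3 measured members was 0.37. Sums of the dopaminergic (0.26 to 0.50 and -0.44 to 0.073), progenitor (2.51 to 2.71 and 1.84 to 2.36) and general neuronal markers (0.84 to 1.03 and 1.05 to 1.34) and of 6 erythroid markers (0.046 to 0.50 and -0.28 to -0.11) separated the sets too. A sum follows its brightest members, here Aldh1a1 and Th, Vim, Eno2 and Hba-a1 in that order. The general neuronal sums stood only just apart, and Eno2 itself overlapped (0.13 to 0.49 and 0.23 to 0.76). Some dimmer members went against the sum of their list. Slc18a2 (means -4.16 and -3.05) and Hes1 (-3.47 and -2.71) were lower in KO 1 to 4, and Tubb3 (-3.76 and -4.96) was higher. Those of oligodendrocyte, microglial and endothelial markers overlapped. The part of these markers in the results below was not tested.

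The 12 largest measured upward differences were of genes bright in KO 1 to 4 and near background on most or all of KO 5 to 7. Hs6st2, which adds sulfate to heparan sulfate chains, was at 1.08, 0.87, 1.04 and 1.24 in KO 1 to 4 and at -5.74, -4.10 and -6.22 in KO 5 to 7. All 5 wild-type arrays were at 0.44 to 1.22, so for Hs6st2 the low arrays were KO 5 to 7 alone. Since 1 of the 3 KO 5 to 7 arrays was well above background, the difference of Hs6st2 is given as a bound, at least 33.0-fold. A bound sets the mean of the bright set against the mean, per dim array, of the higher of its own signal and the lowest signal well above background on that array.

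Cdkn1c, the imprinted cyclin-dependent kinase inhibitor p57, was at 0.41, 0.50, 0.32 and 0.25 in KO 1 to 4 and at -4.73, -6.88 and -6.24 in KO 5 to 7. WT 3 was at 1.61 and WT 5 to 8 at -2.83 to -1.57, so the arrays fell into separate levels. Since no KO 5 to 7 array was well above background, the difference of Cdkn1c is a bound, at least 28.5-fold.

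Prrx2, a homeobox factor of embryonic mesenchyme, was at least 45.7-fold higher, with 1.76 to 2.25 against -4.0 to -3.21. C2, a complement component, was at least 16.2-fold higher, and WT 5 to 8 were low like KO 5 to 7 while WT 3 was high. Cdh6, a cadherin, was at -2.13 to -1.29 in KO 1 to 4, at least 7.05-fold above KO 5 to 7, and all wild-type arrays were near its higher level (-1.34 to -0.95). The other 7 of the 12, above background on no array of KO 5 to 7, had bounds of 5.21 to 9.66-fold: the mitochondrial fatty acid enzyme Hadh, the transsulfuration enzyme Cbs, the transporter Slc22a23, the growth factor receptor Fgfr2, the zinc finger gene Zfp358, the transcription factor Mafa and the monoacylglycerol lipase Mgll. Signals near background have no order, so these 12 are not shown to be the largest differences, and some of their bounds are below the folds of genes measured on all 7 arrays. Hdac11, a histone deacetylase named after its values were seen, was at -0.61 to -0.26 in KO 1 to 4, -4.17 to -3.97 in KO 5 to 7 and -1.09 to -0.31 in the wild type.

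The 12 largest measured differences in the other direction were of genes bright in KO 5 to 7. Smoc1, a matricellular protein, was at -6.01, -5.99, -7.04 and -4.47 in KO 1 to 4 and at 0.50, 0.97 and 0.70 in KO 5 to 7. WT 3 was at -3.48 and WT 5 to 8 at -0.45 to -0.10, so KO 5 to 7 were the highest of the 12 arrays and at least 39.4-fold above KO 1 to 4. Il33, an alarmin cytokine, was at -3.04, -4.27, -4.89 and -5.86 against 1.31, 1.44 and 1.59, with WT 3 at -3.78 and WT 5 to 8 at -0.09 to 0.82. Here WT 3 stood with KO 1 to 4.

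Aldh3a1, an aldehyde dehydrogenase, was at least 72.0-fold lower in KO 1 to 4, with -4.79 to -4.33 against 1.43 to 2.31 and 2 of the 4 arrays above background. Mgp, an inhibitor of calcification, was at -3.17 to -2.67 in KO 1 to 4 and 1.01 to 1.22 in KO 5 to 7, with WT 3 at -3.70 and WT 5 to 8 at -0.50 to 1.86. Col8a1, a short-chain collagen, and Heph, a ferroxidase, were at least 14.9-fold and 8.58-fold lower.

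The complement components C4b (at least 19.5-fold lower) and C4a (at least 5.43-fold lower) are near-identical copies whose probes may read each other's RNA, so the pair is uncertain. C4b was at -2.95, -3.0, -3.08 and -3.80 in KO 1 to 4 and 0.57, 1.36 and 1.35 in KO 5 to 7, and all wild-type arrays were low (-2.98 to -1.64). Serping1, the inhibitor of the first complement protease, had the same shape, with -3.42 to -3.20 in KO 1 to 4, -0.71 to -0.05 in KO 5 to 7 and -4.84 to -3.35 in the wild type. C4a, C4b and Serping1 were thus high in KO 5 to 7 and C2 in KO 1 to 4. The rest of the 12 were Msmp, Gpr15lg, Nrap and Ppp1r1b, the last encoding DARPP-32, a phosphatase inhibitor of dopamine-receptive neurons. Ppp1r1b was above background on all of KO 5 to 7 (-2.89 to -1.90) and on no array of KO 1 to 4.

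**Figure D2:**
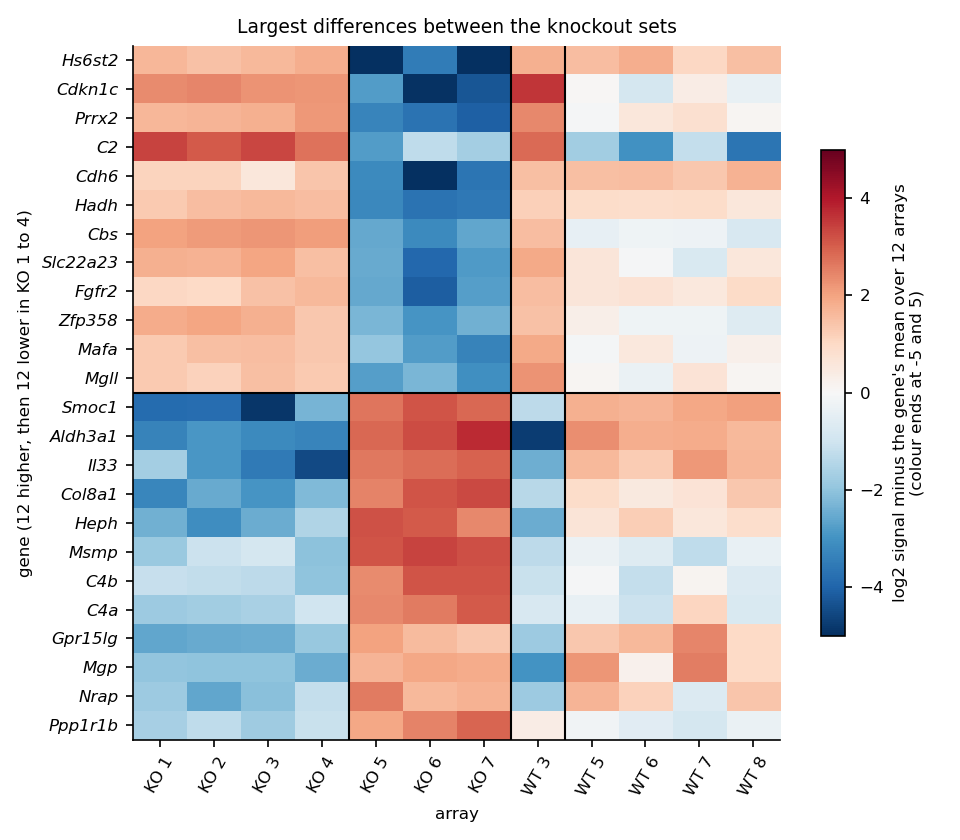
Heat map of the 12 genes with the largest positive and the 12 with the largest negative measured difference between the knockout sets (rows) on the 12 arrays (columns), coloured by log2 signal minus the gene's mean over the arrays, with lines between KO 1 to 4, KO 5 to 7, WT 3 and WT 5 to 8. Hs6st2 is low in KO 5 to 7 only, while Il33 is low in KO 1 to 4 and in WT 3.

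Among genes measured on all 7 arrays, named after their values were seen, the largest differences were 2.38 to 3.17 upward and -4.03 to -2.46 downward. Crabp1, a retinoic acid binding protein, was at 0.63, 0.80, 0.76 and 0.25 in KO 1 to 4 and -2.56, -2.57 and -2.32 in KO 5 to 7. Cited1, a transcriptional co-regulator, was at 2.84, 3.04, 3.01 and 2.67 against -0.02, -0.11 and -0.09. The differences were 3.09 ± 0.16 and 2.97 ± 0.10. Both genes were picked for a large difference without overlap, so their separation follows from that choice.

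Epas1, which encodes the hypoxia-inducible factor HIF-2 alpha, was at 2.50 to 2.91 in KO 1 to 4 and -0.44 to 0.31 in KO 5 to 7, a difference of 2.69 ± 0.21. Igf2r, the imprinted receptor that clears IGF2, differed by 2.62 ± 0.09, and Peg12, another imprinted gene, by 2.65 ± 0.13. Tmem178a, Icoslg, Fgf13, Bambi (a decoy receptor of the TGF-beta family) and Ptges (prostaglandin E synthase) were also on this side. Rn18s, the 18S ribosomal RNA, was at 3.16 to 4.11 against 0.83 to 1.28. Its part in the other differences was not tested.

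On the lower side, the nucleoside transporter Slc29a1 was at -3.33 to -2.08 in KO 1 to 4 and 0.35 to 0.53 in KO 5 to 7. Areg, a ligand of the EGF receptor, was at -2.27, -2.48, -2.53 and -2.88 against 0.53, 0.30 and 0.41. Sulf2, which removes the 6-O-sulfate that enzymes such as HS6ST2 add, was at -1.57 to -1.25 against 0.84 to 1.26, a difference of -2.48 ± 0.14. Hs6st2 and Sulf2 thus differed in opposite directions. Rbpms, Lmo7, Pitpnc1, Nt5c1b and the near-identical pair Wfdc18 and Wfdc18l1 differed by -2.88 to -2.46.

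The gene groups below were lists chosen with earlier results of these data known, and each count stands beside 10.2% higher and 12.2% lower over all features at 1.5-fold. Of 34 lists, cholesterol synthesis had the highest median difference, 0.58, followed by the unfolded protein response, mitosis and TGF-beta targets at 0.51 each. The lists with the lowest medians were p53 targets (-0.33), FoxO and starvation-induced genes (-0.32) and hypoxia-inducible genes outside glycolysis (-0.31). Relative to the all-feature median, the 4 highest medians kept their sign under every scaling tried, with 0.51 to 0.63 for cholesterol synthesis, 0.47 to 0.60 for the unfolded protein response, 0.50 to 0.55 for mitosis and 0.34 to 0.54 for TGF-beta targets.

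**Figure D3:**
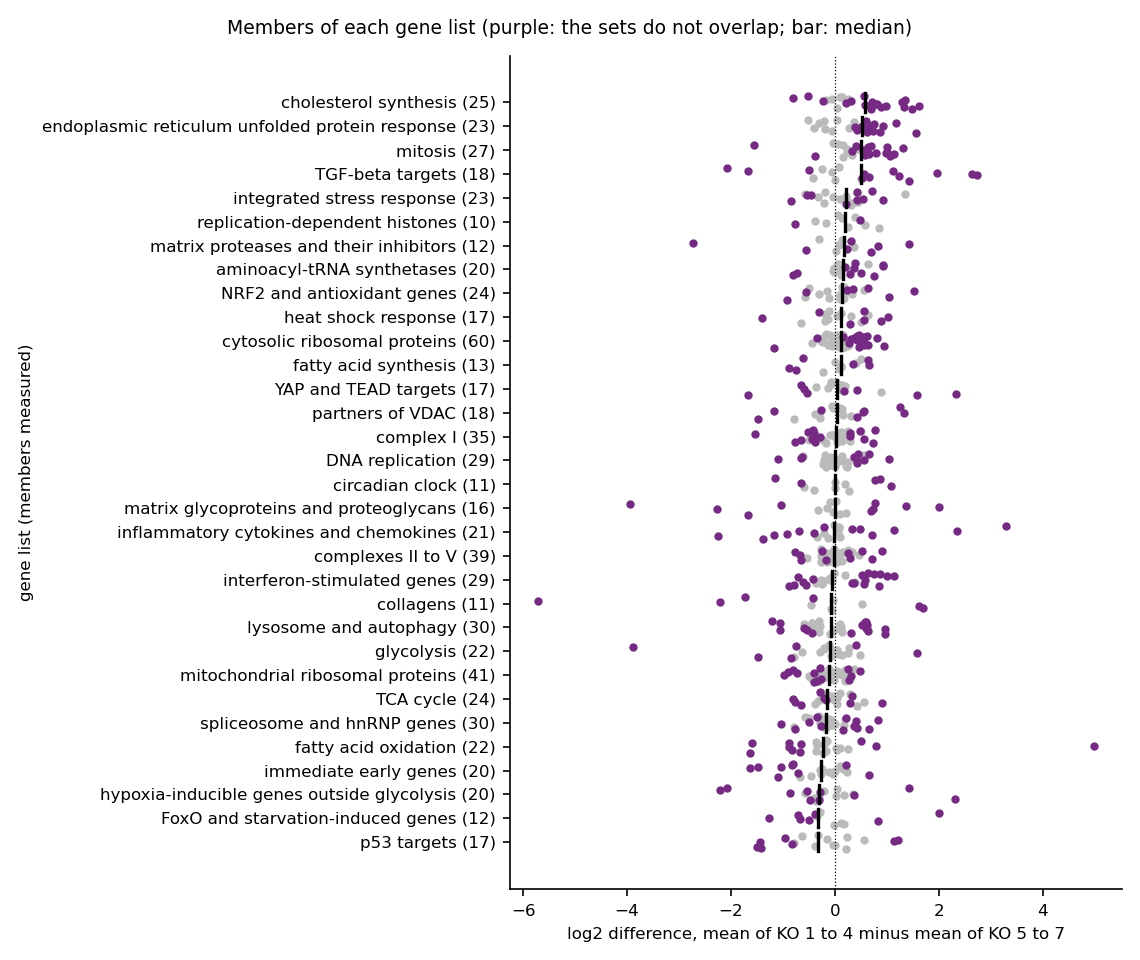
Difference between the sets (log2, mean of KO 1 to 4 minus mean of KO 5 to 7) of every measured member of the gene lists with 10 or more of them measured, ordered by their median; each point is 1 gene, purple where the sets do not overlap, and the bar is the median. The medians run from 0.58 for cholesterol synthesis to -0.33 for p53 targets, and single genes far from 0 stand in lists whose median is near 0.

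Sterol synthesis turns acetyl-CoA into cholesterol through mevalonate, and its genes are switched on together by SREBP-2 when membrane sterol is low. Of 25 measured members, 12 were at least 1.5-fold higher in KO 1 to 4 without overlap and 1 was lower. Fdps, which makes farnesyl diphosphate, was at 2.85, 3.16, 2.91 and 3.0 in KO 1 to 4 and 1.36, 1.36 and 1.35 in KO 5 to 7. Hmgcs1, the enzyme that commits acetyl groups to the pathway, was at 2.84, 2.88, 2.87 and 2.99 against 1.38, 1.53 and 1.33. The sets stood apart by 1.62 ± 0.08 and 1.48 ± 0.06.

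In WT 5 to 8 Fdps was at 0.51 to 0.88 and Hmgcs1 at 0.68 to 1.20, below both knockout sets, while WT 3 was at 2.61 and 2.95. The list's median against the WT 5 to 8 mean was 1.21 in KO 1 to 4, 0.60 in KO 5 to 7 and 1.15 in WT 3. Dhcr7 and Mvd, a late and an early enzyme of the pathway, differed by 1.35 ± 0.28 and 1.33 ± 0.20. Insig1, a sterol sensor partner that retains SREBP in the endoplasmic reticulum, did not follow them, with 1.83 to 2.04 in KO 1 to 4 and 1.55 to 2.01 in KO 5 to 7, although all 7 were above WT 5 to 8 (-0.046 to 0.10). Srebf2 overlapped as well (1.22 to 1.78 and 1.25 to 1.44). Insig1 and Srebf2 were named after their values were seen.

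The unfolded protein response raises chaperones and folding enzymes when proteins accumulate unfolded in the endoplasmic reticulum. Of its 23 members, 10 were at least 1.5-fold higher in KO 1 to 4 without overlap and none was lower, and 14 lay wholly above. Hspa5, the chaperone BiP, was at 3.46, 3.59, 3.66 and 3.46 in KO 1 to 4 and 1.82, 2.04 and 2.09 in KO 5 to 7, with WT 3 at 3.73 and WT 5 to 8 at 2.32 to 2.62. KO 5 to 7 were below every other array for Hspa5, and the sets differed by 1.56 ± 0.09. Xbp1, a transcription factor of the response, differed by 1.17 ± 0.27, Hyou1, a chaperone, by 0.94 ± 0.16, and Calr, a lectin chaperone, by 0.86 ± 0.24. Against the mean of WT 5 to 8 the list's median was 0.32 in KO 1 to 4, -0.090 in KO 5 to 7 and 0.18 in WT 3.

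Many genes of this response carry an ER stress response element in their promoters, CCAAT and CCACG with 9 bases between them. It was searched on both strands in the 250 bases before the start of each gene in the RefSeq table of build GRCr8, where 22 of 33469 promoters (0.0657%) held it. Of 23 members 19 had a promoter there, and 9 of those held the element. The difference between the sets ran from -0.51 to 1.56 (median 0.62) over the 9 and from -0.41 to 0.94 (median 0.40) over the other 10, of which 6 and 5 lay wholly above. The promoters of 2 members that differed, Hspa5 and Xbp1, and of Canx, a membrane-bound lectin chaperone that holds the element but differed by -0.051 ± 0.11, are shown 5′ to 3′ on the gene's strand with the element in capitals. A match is a description of these letters and not evidence that a factor binds.
Hspa5, chr3:38452766-38453015, plus strand: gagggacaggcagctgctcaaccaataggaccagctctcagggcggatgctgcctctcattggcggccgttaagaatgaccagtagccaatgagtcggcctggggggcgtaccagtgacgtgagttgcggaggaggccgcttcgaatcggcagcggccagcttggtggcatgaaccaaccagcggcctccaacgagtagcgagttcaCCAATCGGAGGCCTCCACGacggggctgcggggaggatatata
Xbp1, chr14:84604373-84604622, plus strand: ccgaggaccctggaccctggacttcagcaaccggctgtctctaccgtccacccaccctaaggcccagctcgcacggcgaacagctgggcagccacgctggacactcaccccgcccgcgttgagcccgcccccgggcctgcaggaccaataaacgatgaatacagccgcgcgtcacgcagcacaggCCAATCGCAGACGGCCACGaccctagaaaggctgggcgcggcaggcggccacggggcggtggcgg
Canx, chr10:35157858-35158107, minus strand: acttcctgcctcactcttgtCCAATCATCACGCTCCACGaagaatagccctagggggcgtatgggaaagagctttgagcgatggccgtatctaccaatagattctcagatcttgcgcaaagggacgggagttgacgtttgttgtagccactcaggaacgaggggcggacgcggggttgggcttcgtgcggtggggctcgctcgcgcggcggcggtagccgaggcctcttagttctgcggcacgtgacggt

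Mitotic genes were more often higher than lower in KO 1 to 4. Of 27 measured, 10 were at least 1.5-fold higher without overlap and 1 was lower. Cdk1, the kinase that drives entry into mitosis, was at 3.68, 3.91, 3.90 and 4.10 in KO 1 to 4 and 3.09, 2.65 and 2.53 in KO 5 to 7. Ccnb1, its cyclin, was at 0.72, 1.05, 0.88 and 0.86 against -0.15, -0.22 and -0.16. They differed by 1.14 ± 0.18 and 1.05 ± 0.08, and Cenpf, a kinetochore protein, was at least 2.36-fold higher. The exception was Birc5 (survivin), at -1.34 to -0.19 in KO 1 to 4 and 0.45 to 0.99 in KO 5 to 7. DNA replication genes had a median near that of all features, with 2 of 29 higher and 3 lower. Cdkn1c, a cell cycle inhibitor, was higher in KO 1 to 4 too.

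**Figure D4:**
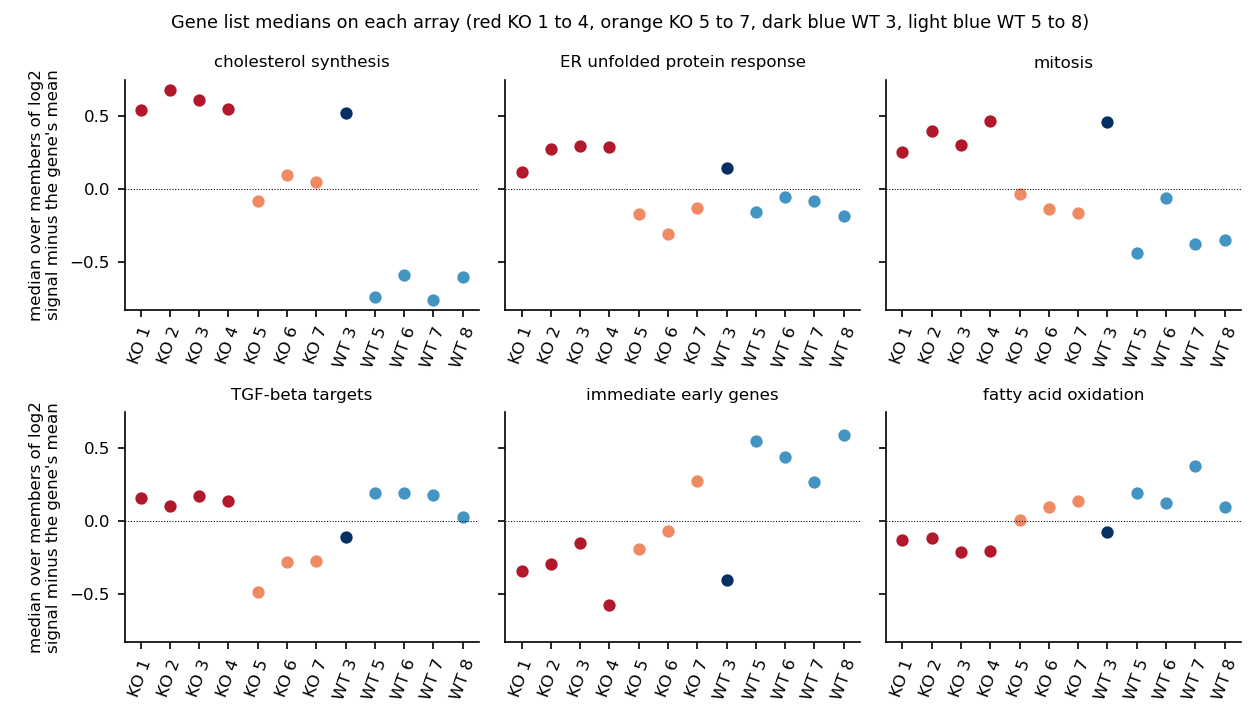
Median over the members of 6 gene lists on each of the 12 arrays (points), as log2 signal minus each gene's mean over the arrays, coloured by set. For cholesterol synthesis KO 1 to 4 and WT 3 lie at 0.52 to 0.67, KO 5 to 7 at -0.09 to 0.09 and WT 5 to 8 at -0.76 to -0.59, while for immediate early genes KO 3 (-0.15) and KO 5 (-0.19) overlap.

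Targets of TGF-beta, a growth factor that drives matrix and contractile genes, differed in both directions. Of 18 measured, 7 were at least 1.5-fold higher without overlap and 2 were lower. Tagln, an actin-binding protein of smooth muscle, was at -0.23, -0.06, -0.04 and 0.10 in KO 1 to 4 and -2.46, -3.13 and -2.76 in KO 5 to 7. Acta2, smooth muscle actin, was at -1.17, -1.25, -1.41 and -1.66 against -3.74, -5.09 and -3.23, and Myl9, a myosin light chain, was higher as well. WT 5 to 8 stood with KO 1 to 4 for Tagln (-0.20 to 0.46) and between the sets for Acta2 (-2.76 to -2.06).

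The lower genes of that list were Fn1, fibronectin, at 1.94 to 2.55 in KO 1 to 4 and 3.75 to 4.12 in KO 5 to 7, and the transcriptional repressor Bhlhe40, at -4.73 to -4.13 against -2.51 to -2.22. Srf, which encodes the factor that drives contractile genes, overlapped (0.07 to 0.34 and 0.02 to 0.18, named after its values were seen). Acta2 is also on the list of fibroblast and pericyte markers, whose sums are given above. Of that list Pdgfra lay on the other side, with a mean of -6.39 in KO 1 to 4 and -2.84 in KO 5 to 7.

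Of 17 targets of YAP, the effector of cell tension and density, 2 were higher and 3 lower. Ccn1, a matricellular protein, was higher by 1.58 ± 0.26, and Ccn2, the related matricellular protein, differed by -1.68 ± 0.20. Ankrd1 was at -3.59 to -3.22 in KO 1 to 4 and at -4.81 or below on the other 8 arrays, with 1 of KO 5 to 7 above background. It was at least 1.81-fold higher, and with normexp its difference was 0.28 and the sets overlapped.

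Collagens and other matrix genes held large differences in both directions. Of 11 collagens 2 were higher and 3 lower, and of 16 matrix glycoproteins and proteoglycans 5 were higher and 4 lower. Col6a2 was at -4.06, -3.92, -3.77 and -3.66 in KO 1 to 4, below KO 5 to 7 (-1.77 to -1.5) and below all wild-type arrays (-1.45 to -0.96). Spp1, osteopontin, was at -0.20, 0.08, -0.08 and -0.06 against 2.08, 2.28 and 2.27. Col4a1, a basement membrane collagen, and Fmod, fibromodulin, were higher in KO 1 to 4 by 1.69 ± 0.27 and 2.01 ± 0.16. Serpine2, a protease inhibitor, was at least 6.28-fold lower, and the collagen receptor subunit Itga1 was higher by 1.80 ± 0.22.

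Immediate early genes, which growth factor signals switch on within minutes, were more often lower in KO 1 to 4, with 1 of 20 higher and 7 lower. Dusp6, a phosphatase that reports ERK activity, was at 1.51, 1.28, 1.61 and 1.08 in KO 1 to 4 and 2.78, 2.89 and 2.86 in KO 5 to 7. Dusp5, another ERK phosphatase, was at -1.40 to -1.0 against 0.08 to 0.68, and the transcription factors Fosl1 and Klf4 differed by -1.1 ± 0.18 and -1.03 ± 0.09. The list's median relative to all features was -0.24 and moved to -0.10 without KO 7, -0.18 without KO 4 and -0.43 without KO 5. WT 3 was below every knockout array for Dusp5, Fosl1 and Klf4, and WT 5 to 8 were near or above KO 5 to 7 for Dusp6 (2.43 to 3.01) and Klf4 (1.13 to 1.67).

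Of 17 p53 targets 2 were higher and 5 lower, with a median relative to all features of -0.30 that moved to -0.096 without KO 4. Mdm2, the ubiquitin ligase that limits p53, was at -0.64, -0.64, -0.52 and -0.51 in KO 1 to 4 and 0.75, 0.84 and 0.96 in KO 5 to 7. Ccng1 and Tp53inp1 differed by -1.5 ± 0.12 and -1.44 ± 0.21, while the death receptor Fas was higher by 1.22 ± 0.19. WT 3 stood on the side of KO 1 to 4 for Mdm2 (-0.80) and WT 5 to 8 on that of KO 5 to 7 (0.70 to 1.18).

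Respiratory chain genes were counted beside the same 10.2% higher and 12.2% lower over all features. Of 35 complex I genes 2 were higher (Ndufv3 and Ndufa1) and 3 lower, with a median difference of 0.030, and of 39 genes of complexes II to V 2 were higher and 3 lower, with a median of -0.021. With no limit of size, 6 complex I genes lay wholly above and 11 wholly below, beside 17.3% and 19.7% of all features. After scaling to the median these became 8 and 1. Of complexes II to V, 5 lay wholly above and 5 wholly below. Of 24 genes of the citric acid cycle 1 was higher, Idh3g, and 3 were lower. The medians of complex I, of complexes II to V and of the cycle changed sign relative to all features with the scaling of the arrays.

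Fatty acid oxidation had 2 of 22 genes higher and 7 lower. Hadh, at -1.37, -1.16, -1.08 and -1.16 in KO 1 to 4, was at -5.92, -6.38 and -6.25 in KO 5 to 7, where no array was above background, and at -2.12 to -1.51 in the wild type. On the other side were Cpt1a, the outer membrane enzyme that lets long-chain fatty acids into mitochondria (-3.09 to -2.50 against -1.33 to -0.97), and the thiolases Acaa2 and Hadhb, with differences of -1.59 ± 0.23 and -0.88 ± 0.18.

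Glycolysis had 1 of 22 genes higher and 4 lower. Hk2, the inducible hexokinase that docks on VDAC, was at -0.84, -0.94, -0.91 and -0.85 in KO 1 to 4 and 0.54, 0.62 and 0.61 in KO 5 to 7, a difference of -1.48 ± 0.03. The wild-type arrays lay between the sets (-0.69 to -0.13). Ldhb, the lactate dehydrogenase subunit of oxidative tissues, was well above background on KO 5 to 7 (-2.83 to -2.67) and on no array of KO 1 to 4, at least 3.49-fold lower there. Slc2a1, the glucose transporter GLUT1, was at 0.95 to 1.37 against 1.85 to 2.06, and Aldoc was the gene on the other side, higher by 1.59 ± 0.15.

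Of 18 measured partners of VDAC, 2 were higher, 2 lower and 14 within 1.5-fold or overlapping. Bak1, the pore-forming BCL2 family protein, was at 2.32, 2.14, 2.53 and 1.23 in KO 1 to 4 and 0.26, 0.82 and 1.06 in KO 5 to 7. KO 4 lay close to the other set for Bak1, and the difference was 1.34 ± 0.39. Tuba1a, an alpha-tubulin, was higher by 1.25 ± 0.13. Itpr1, a calcium release channel of the endoplasmic reticulum, was at -1.65 to -1.43 against -0.51 to -0.24.

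Hypoxia-inducible genes outside glycolysis went both ways, with 2 of 20 higher and 3 lower. Adm, the vasodilator peptide adrenomedullin, was at 4.56, 4.61, 4.79 and 4.51 in KO 1 to 4 and 2.26, 2.52 and 2.15 in KO 5 to 7. Bhlhe40 and Higd1a were lower, each with some arrays of KO 1 to 4 not above background. Stc1, named after its values were seen, was above background on KO 5 to 7 (-2.50 to -2.20) and not on KO 1 to 4.

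Of 21 cytokine and chemokine genes 4 were higher and 5 lower. Cxcl3, a neutrophil chemokine, was at 3.39, 3.51, 3.54 and 3.37 in KO 1 to 4 and 0.89, 1.24 and 1.17 in KO 5 to 7, with all wild-type arrays at 3.03 to 4.01. Csf2, the factor GM-CSF, was at least 3.64-fold lower and the receptor antagonist Il1rn differed by -1.38 ± 0.22. The adhesion molecule Vcam1 was at least 2.58-fold higher. Of 29 interferon-stimulated genes 6 were higher, Psmb8 and Psmb9 of the immunoproteasome among them (1.14 ± 0.11 and 1.00 ± 0.20), and 4 lower.

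Stress and translation genes held smaller differences. In the integrated stress response 2 of 23 genes were higher and 1 lower: Gdf15, a stress cytokine, was at 0.80, 0.20, 0.85 and -0.08 in KO 1 to 4 and -0.45 to -0.15 in KO 5 to 7, while Asns, asparagine synthetase, differed by -0.84 ± 0.03. Of 24 NRF2 and antioxidant genes 3 were higher, among them Srxn1, which repairs oxidised peroxiredoxins (1.05 ± 0.12), and 1 was lower, Nqo1. Of 60 cytosolic ribosomal protein genes 4 were higher and 1 lower, Rpl3, at 5.80 to 6.02 against 6.89 to 7.36. Mitochondrial ribosomal protein genes had 0 of 41 higher and 4 lower.

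Integrins, the receptors that bind cells to matrix, had 3 of 8 genes higher and 0 lower, and replication-dependent histones had 0 of 10 higher and 1 lower. Fatty acid synthesis had 2 of 13 genes higher and 3 lower, aminoacyl-tRNA synthetases 3 of 20 and 2, and spliceosome and hnRNP genes 2 of 30 and 2. In the heat shock response 2 of 17 were higher, among them the small chaperone Hspb1 (1.02 ± 0.12), and 1 was lower, the co-chaperone Dnajb4 (-1.40 ± 0.08). The difference of Dnajb4 was -0.85 with normexp background correction and -0.77 at its other probe. Lysosome and autophagy genes had 7 of 30 higher and 4 lower, and Becn1, which starts autophagosome formation, was at 0.08, 0.26, 0.06 and -0.11 in KO 1 to 4 and 1.03, 1.11 and 1.22 in KO 5 to 7. The counts of that list were 9 higher and 3 lower after scaling to the median. With the 75th percentile of detected spots they were 2 and 6. Matrix proteases and their inhibitors had 3 of 12 higher and 1 lower, and FoxO and starvation-induced genes 2 of 12 and 3.

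In some genes both knockout sets lay on the same side of the wild type, and 3 of them were named after their values were seen. Bnip3, a mitophagy receptor, was at 0.85, 1.18, 0.98 and 1.34 in KO 1 to 4 and 1.58, 1.6 and 1.19 in KO 5 to 7, above all wild-type arrays (-0.27 to 0.31). Tpi1, a glycolytic isomerase, was at 1.83 to 2.17 and 2.16 to 2.39 against 0.88 to 1.1. Nupr1, a stress-induced chromatin protein, was at 0.96 to 1.15 in KO 1 to 4 and 1.43 to 1.63 in KO 5 to 7, below WT 3 (1.94) and WT 5 to 8 (2.75 to 3.28). For Bnip3 and Tpi1 the sets overlapped, and for Nupr1 they did not.

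The wild-type arrays divided along the same numbers for many of the genes. Of the 591 features higher in KO 1 to 4, WT 3 was above all of WT 5 to 8 at 377 (63.8%), beside 32.2% of all features, and below all of them at 42. Of the 764 lower features WT 3 was below all of WT 5 to 8 at 550 (72.0%), beside 27.9% of all features, and above all of them at 38. Since the sets were chosen on an axis that also separates WT 3 from WT 5 to 8, these shares are a description. At 286 higher and 430 lower features, KO 1 to 4 with WT 3 lay wholly beyond the other 7 arrays. Among all features, at any size, they lay wholly above the other 7 at 7.0%, and the share wholly below was not counted.

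Some features set a knockout group apart from every other array, and part of them are among the features just counted. KO 5 to 7 lay beyond the other 9 arrays at 238 higher and 289 lower features, as in Vdac1, Hs6st2, Cxcl3 and Serping1. At any size, KO 5 to 7 lay wholly below the other 9 at 4.36% of all features, and the share wholly above was not counted. KO 1 to 4 lay beyond the other 8 at 155 higher and 200 lower features, as in Adm, Fmod and Col6a2. At any size, KO 1 to 4 lay wholly above the other 8 at 4.07% of all features, and the share wholly below was not counted. Across the 11621 features measured on all 7 arrays, the set difference and WT 3 minus WT 5 to 8 had a Pearson correlation of 0.526, again a description across genes. Pearson correlations with WT 3 were 0.965 to 0.978 for KO 1 to 4 and 0.935 to 0.949 for KO 5 to 7, and those with WT 5 to 8 were 0.943 to 0.967 and 0.952 to 0.976. Sample number and the division of the cultures cannot be told apart, as WT 3 was the one wild-type array numbered under 5.

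Differences were unevenly spread over the chromosomes, by the rn4 positions of the probes. Of the 11621 features measured on all 7 arrays 10991 lay on chromosomes 1 to 20 and X. The median difference relative to all of these was 0.34 on chromosome 20, 0.22 on chromosomes 2 and 3 and 0.20 on chromosome 14. It was -0.27 on chromosome 4 and -0.20 on chromosome 6. Each of these kept its sign under every scaling and without any 1 array, with 0.22 to 0.34 for chromosome 20 and -0.28 to -0.19 for chromosome 4 over the scalings. Scalings that shift all features of an array alike could not move these relative medians. Normexp, quantile normalization, the deposited table and keeping flagged spots could.

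Within chromosomes some differences lay in stretches that could have gaps. Over 283 bins of 5 Mb with at least 15 features, 8 runs of 3 or more such bins in order had medians at least 0.25 from the overall one on the same side, 5 above and 3 below, with 1220 features in all. Bins with fewer features were passed over, so the bins of a run need not be adjacent. The run on chromosome 4 from 125 to 185 Mb held 8 such bins. Those on chromosome 2 from 155 to 185 Mb and chromosome 7 from 30 to 60 Mb held 3 each. On chromosome 4 from 125 to 185 Mb, 214 features had a median of -0.39 and 15% were positive. On chromosome 6 from 70 to 115 Mb the median of 201 features was -0.46, and on chromosome 7 from 30 to 60 Mb that of 72 was -0.40. The 5 runs above were chromosome 2 from 155 to 185 Mb (0.43), chromosome 3 from 0 to 20 Mb (0.38) and from 65 to 90 Mb (0.27), chromosome 14 from 75 to 105 Mb (0.40) and chromosome 20 from 0 to 15 Mb (0.45).

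The set that stood away from WT 5 to 8 differed between stretches. In the run on chromosome 14 KO 5 to 7 were at -0.39 relative to WT 5 to 8 and KO 1 to 4 at 0.040, and in that on chromosome 4 KO 5 to 7 were at 0.39 and KO 1 to 4 at 0.028. On chromosome 7 it was KO 1 to 4 that lay at -0.40, with KO 5 to 7 at 0.055. On chromosome 20, KO 1 to 4 were at 0.61, WT 3 at 0.56 and KO 5 to 7 at 0.14. The stretches were defined after their values were seen, and RNA signal alone does not show DNA copy number. With each chromosome's median taken off, 538 features were at least 2-fold higher and 722 lower. C2, Cbs and Icoslg are on chromosome 20, as are C4a, C4b and Col6a2, which lay on the other side.

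**Figure D5:**
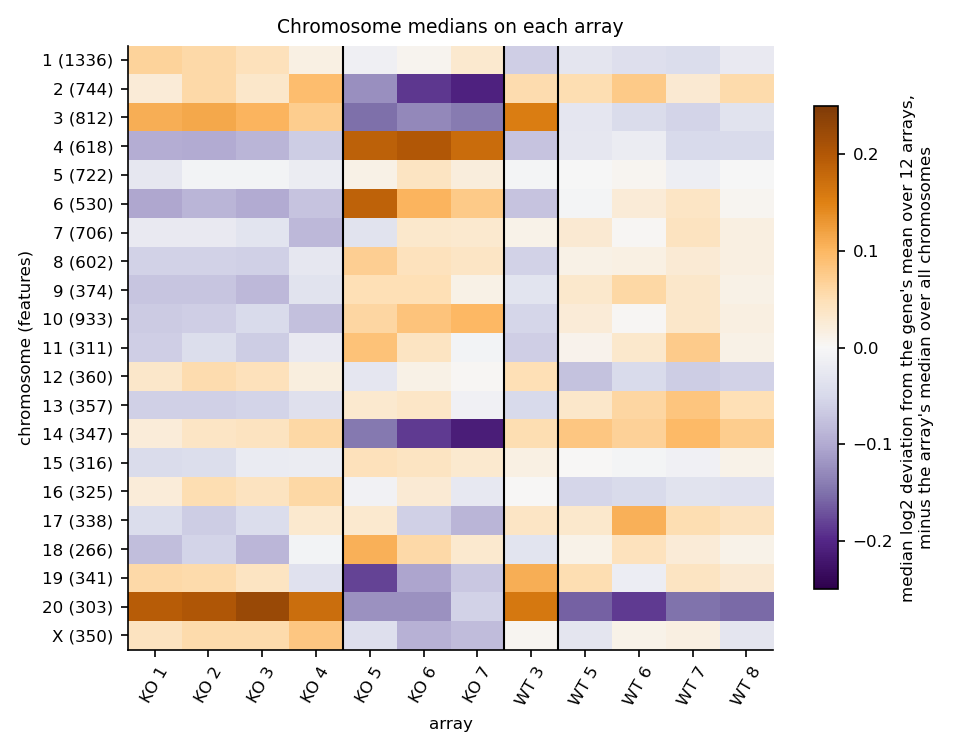
Heat map of the median log2 deviation of each chromosome's features (rows, features measured on all 7 knockout arrays) from their gene means on each of the 12 arrays (columns), minus the array's own median. On chromosome 4, KO 5 to 7 are at 0.17 to 0.20 and the other 9 arrays below 0, and on chromosome 20, KO 1 to 4 and WT 3 are at 0.16 to 0.22 and the other 7 arrays below 0.

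Within the sets, KO 4 and KO 5 stood furthest from their mates. KO 4 was at least 1 away from the mean of KO 1 to 3 at 853 features (5.70%), and KO 5 from KO 6 and 7 at 1118 (7.47%), beside 1.11% to 3.93% for the other 5 arrays. Large distances were found at dim probes: the kinase gene Yes1 was at -1.51 in KO 4 and -5.42 to -3.75 in KO 1 to 3, and Pex13, a peroxisomal import gene, was at -1.75 in KO 5 and at -4.46 and -5.46 in KO 6 and 7. The other features named for this distance were Apoc3 and Tmem116 in KO 4 and Oxnad1 in KO 5. Without KO 4 the counts were 715 higher and 819 lower, and without KO 5 they were 622 and 843.

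Where a gene had another probe, it mostly gave the same direction. Of the 591 higher features 71 had another measured probe, and in 66 every one was on the same side, in 33 at 2-fold or more. Of the 764 lower features the numbers were 94, 86 and 51. An index of RNA integrity, the signal of upstream minus downstream probes of the same transcript over 556 pairs at least 500 bases apart, was -1.91 to -1.76 on the 7 arrays without separating the sets. By the GC content of the probe, the median difference of the 5 bins from lowest to highest was -0.076, -0.057, -0.037, 0.098 and 0.055.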

How the data were processed

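Total RNA of 12 N27 cultures was hybridised to 1-colour (Cy3) Agilent rat arrays. The authors deposited scanner output, in which each spot has a linear intensity, made with Agilent Feature Extraction (10.7 per the submitters' processing notes, 10.1.1.1 per the file headers); other columns used, per the file headers, are flags and the probe's position. The deposited value table holds log2 values of the same arrays, quantile-normalized by the authors per its titles, with a median of 3.06 in every column and a Spearman correlation of 0.999 with the scanner signal of the same array; it served as an alternative.

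Of 58717 spots that were not controls (45598 probes of length 60), flagged outlier spots were left out and spots of a probe averaged. The log2 processed signal minus the array's 75th percentile was used, with 1 probe per gene name, the one of highest mean over the 7 knockout arrays. Features well above background on 3 or more of these arrays were kept. Symbols come from RefSeq for 21102 probes through the accession, for 6691 through the symbol and for 424 through a synonym, while 17381 bear the array's own name. A feature counts as higher or lower where the set means differ by at least 1 (2-fold) and the sets do not overlap; 1.5-fold is used for gene lists.

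Members, lists and tests were chosen with earlier results of these data known, and the sets come from the data, so no test was made. The precision is limited by the number of arrays, and the labels do not say beyond the word cultures that they were independent. Genes named are the VDAC isoforms, the 12 largest differences in each direction among symbols whose brighter set was above background, up to 4 per list of at least 1.5-fold without overlap, and 3 features for the array furthest from its set; others are said to be named after their values were seen, or are marker genes or listed members given as part of a count. Some genes that this rule names are not reported here. The counting was tested on simulated data. Tools were Python 3.11.15, numpy 2.4.6, pandas 2.3.3, and R 4.3.3 with limma 3.58.1 for normexp. Alternatives covered background correction, scaling, filter, flags, probes, slide, scan day, size of difference and each array left out; chromosome medians taken off, and the settings for chromosome medians, were added after seeing the data.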

Additional observations from a re-analysis of the deposited data

Results flagged for a closer look

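Each gene chosen for naming and reported here was examined for an array far from the other 3 of its group, in KO 1 to 4 and in WT 5 to 8. Over 188 probes and 376 groups, 20 arrays stood apart by Dixon's criterion (the gap to the nearest other array over the range of the group). Chance alone marks about 1 group in 20, and the total was near that share. KO 4 accounted for 8 of the 12 in KO 1 to 4, and WT 7 for 7 of the 8 in WT 5 to 8. KO 4 and WT 7 were on slide 3, the only slide scanned on the other day. The slide's part in these values was not tested.

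In KO 4 the low values were C4b at -3.80 (others -3.08 to -2.95), Mgp at -3.17 (-2.72 to -2.67), Apoc3 at -5.88 (-3.41 to -3.02), Ifit2 at -4.10 (-3.57 to -3.52) and Vcam1 at -4.57 (-2.82 to -2.47). The high values in KO 4 were Pitpnc1 at -2.47 (-3.53 to -3.43), Irs2 at -0.49 (-1.09 to -0.99) and Mrps14 at -1.77 (-2.10 to -2.07). C4b, Mgp, Pitpnc1 and Vcam1 were named under a rule of no overlap, so KO 4 was on its own set's side of KO 5 to 7 by selection.

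Elsewhere in KO 1 to 4, the imprinted receptor gene Igf2r was low in KO 2 at 1.28 (1.49 to 1.53), the citric acid cycle gene Dlst was low in KO 3 at 0.93 (1.43 to 1.46), the p53 target Tp53inp1 was high in KO 1 at -1.41 (-2.07 to -2.0) and the clock repressor Nfil3 was high in KO 3 at -1.59 (-1.90 to -1.86).

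In WT 7 the high values were Idh3g at 3.36 (2.93 to 2.99), Fasn, fatty acid synthase, at 1.45 (0.88 to 0.97), Klf4 at 1.67 (1.13 to 1.22), Rpl13 at 7.65 (6.62 to 6.79) and Srebf1 at 1.81 (0.52 to 0.71). The low ones were Yes1 at -5.78 (-3.89 to -3.67) and Uqcr10 at 4.87 (5.22 to 5.27). Hadh was low in WT 8 at -2.12 (-1.81 to -1.76).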

How the results depend on the processing

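The counts of 591 higher and 764 lower features became 166 and 143 with normexp, 1019 and 461 after scaling to the median, 294 and 379 among features above background on all 7 arrays, 1102 and 1341 for KO 4 against KO 5 on slide 3 (1 array a side, so a value with no check by replicates), 1520 and 1825 at 1.5-fold and 207 and 253 at 3-fold. The smaller counts at 3-fold and on all 7 arrays follow from the rule; the cause was not tested for normexp and the median. Under the other settings the counts stayed within 1.5 times, and leaving out each array gave 590 to 749 and 761 to 843. The Vdac1 difference of 1.17 was 1.39 after scaling to the median and 1.01 to 1.19 under the other settings, and 1.11 to 1.28 with an array left out; this is the probe at base 1724, and with normexp the other 2 probes gave 0.26 and 0.48.

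None of the 173 probes of named genes that differed by at least 1.5-fold without overlap changed direction. With fewer of the same arrays none could, because the probes were chosen for sets that do not overlap. Only background correction, the other scalings, the deposited table and the flagged spots could have changed it. The sets stayed apart for 139 of them with normexp and for 165 to 171 with the other scalings and the deposited table, and with normexp 76 fell below 2/3 of their difference (median ratio 0.734). Without KO 5 that of Stc2 fell from 1.42 to 0.80, and without KO 7 that of Atp5mc3 from 0.91 to 0.48. No paired analysis was possible because the 2 sets share no sample number and no test was made. Dim probes limit the largest folds, which are bounds where a set was not above background.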

Other observations

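Genes above background in only 1 of the knockout sets were found on both sides. Of the 591 higher features 32 were well above background on all of KO 1 to 4 and on none of KO 5 to 7, and of the 764 lower features 72 were the reverse. Besides Ldhb, Stc1 and Ppp1r1b these included Sox5, a transcription factor of neural and cartilage development, at -2.76, -2.65 and -2.19 in KO 5 to 7 and not above background on any array of KO 1 to 4, and Triqk, a small membrane protein of the endoplasmic reticulum, at -1.96, -1.81 and -1.93. Both were named after their values were seen. Over all 14962 features, 33 were well above background on all of KO 1 to 4 and none of KO 5 to 7. The reverse was not counted over all features. Features of either kind passed the filter through their bright set alone.

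Map1b, a microtubule-associated protein of growing axons, was at -1.82 to -1.32 in KO 1 to 4, -1.27 to -0.85 in KO 5 to 7, -0.65 in WT 3 and -0.24 to 0.57 in WT 5 to 8. It was lower in both knockout sets than on any wild-type array. Atf6, a sensor of the unfolded protein response, was at -1.07 to -0.53 in KO 1 to 4 and -0.60 to -0.32 in KO 5 to 7, which overlap, unlike its target Hspa5. Map1b and Atf6 were named after their values were seen.

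Clock genes held differences on both sides, with a list median near 0. The clock repressor Cry2 was at 0.43, 0.80, 0.60 and 0.66 in KO 1 to 4 and -0.45, -0.30 and -0.64 in KO 5 to 7, and Ciart, another repressor, lay on the other side at -3.43 to -2.98 against -2.41 to -1.79. Of 11 clock genes 3 were higher and 2 lower. In the list of FoxO and starvation-induced genes, Txnip, an inhibitor of glucose uptake that is induced by glucose, was at -1.68 to -1.30 against -0.39 to 0.09.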
